A study of Mus musculus with 12 samples.

Results

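Transcripts of 10 genes whose products add phosphate to the microtubule-binding protein tau or take it off were followed in mouse cortex: Gsk3a, Gsk3b, Cdk5, Cdk5r1, Cdk5r2, Mark1, Mark2, Dyrk1a, Ppp2ca and Ppp2r2a. They were picked by gene symbol, as 10 of the 24062 symbols in a table of raw read counts, and all 10 passed the filter on low counts that left 15440 genes to test. The libraries came from 3 WT mice, 3 Tia1+/- mice, 3 PS19 mice and 3 P301S Tia1+/- mice, each 9 months old, with 1 library per mouse. WT mice carry neither change. Tia1+/- mice have 1 working copy of Tia1, which encodes an RNA-binding protein of stress granules, beside an allele that makes no TIA1 protein. PS19 mice carry a human MAPT transgene with the P301S mutation under the Prnp promoter and both copies of Tia1, and P301S Tia1+/- mice carry the same transgene with 1 working copy of Tia1. The study's methods describe crosses of PS19 mice with a Tia1 knockout line kept on C57BL/6J, and name male mice unless noted.

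Tau is phosphorylated at many serine and threonine residues, and heavy phosphorylation loosens its hold on microtubules and marks the tangles of tauopathies. GSK3, the CDK5 complex and DYRK1A phosphorylate sites mostly next to proline, often one kinase preparing a site for another, whereas MARK kinases act inside the repeats that bind microtubules. Protein phosphatase 2A is the main tau phosphatase of the brain and works as a complex of a scaffold, a catalytic and a regulatory subunit, the last of which selects the substrate. The counts measure transcripts, so kinase activity, protein level and tau phosphorylation were not measured.

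Library totals ran from 11978962 to 19146484 counts, a ratio of at most 1.60, and in any library a member had between 357 counts (Cdk5r2) and 8657 counts (Ppp2ca) in a library. Levels are given as CPM, counts scaled to a common library size with edgeR's TMM factors. Tia1 itself averaged 82.0 ± 10.3 CPM (SD, n = 3) for WT, 68.0 ± 10.3 for Tia1+/-, 73.5 ± 3.87 for PS19 and 74.7 ± 2.76 for P301S Tia1+/- mice, and did not pass the test in any comparison, where its smallest adjusted p was 0.239 in edgeR's quasi-likelihood test. Xist was between 217 and 367 CPM in all 6 libraries labelled with 1 Tia1 copy and at most 0.783 CPM in the other 6, while 4 Y-linked genes showed the opposite. Tia1 genotype and sex-linked expression therefore cannot be told apart here.

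The labels of both groups with 1 Tia1 copy disagree with each other. The libraries titled Tia1+/- have a genotype field naming the P301S double mutant, and those titled P301S Tia1+/- have a field naming Tia1 heterozygotes without the transgene. Group names here follow the titles, which are also the column names of the count table. Mapt, the mouse tau gene, averaged 453 ± 12.2 CPM (SD, n = 3) for PS19 and 346 ± 81.2 for WT, and was at 349 ± 11.2 for the libraries titled P301S Tia1+/- and 434 ± 80.8 for those titled Tia1+/-. These mean levels go against the titles and with the genotype fields, although no difference of Mapt passed the test. Single libraries titled Tia1+/- had 502, 455 and 344 CPM of Mapt. The last lies within the 336 to 357 CPM of those titled P301S Tia1+/-. Mapt was also low in WT replicate 1, at 256 CPM against 369 and 413 CPM in the other WT libraries. That library and those titled P301S Tia1+/- were the highest in the olfactory bulb genes given below. Whether Mapt follows bulb tissue rather than the label was not tested. Prnp, whose promoter drives the transgene, was at 2124, 2018 and 2158 CPM in PS19 and at 1500, 1535 and 1404 CPM in the libraries titled P301S Tia1+/-, within the 1334 to 1879 CPM of WT. The libraries titled Tia1+/- had 1922, 1664 and 996 CPM of Prnp, all below PS19. Whether reads of the transgene were counted under either mouse symbol is not given in the sources used here, so neither gene settles the labels. If the genotype fields are right, the names Tia1+/- and P301S Tia1+/- change places in every comparison below. The difference between these groups would then turn its sign, and the mean tau effect and the interaction would be other contrasts, while the mean Tia1 effect would stay as it is.

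Some libraries stood apart in markers of neighbouring brain regions. A list of 12 olfactory bulb genes summed to 1166 CPM in WT replicate 1 and to 734, 805 and 888 CPM in the P301S Tia1+/- libraries, against 29.2 to 188 CPM in the other 8. A list of 11 striatal genes summed to 2610 CPM in Tia1+/- replicate 3 and to between 207 and 436 CPM elsewhere. Neuronal markers (8 genes) summed to between 6521 and 8974 CPM in every library, but the sum hides differences in both directions. Gad1 was at 857 to 1044 CPM in P301S Tia1+/- and 282 to 342 CPM in PS19 libraries. Snap25 was at 2025 to 2637 CPM in P301S Tia1+/- and 2782 to 3919 CPM in PS19 libraries. Of 5 blood markers, 4 were at 0 in all 12. How multiply aligned reads were treated is not given, so these zeros do not measure blood content. Oligodendrocyte markers (6 genes) were at 3079 to 4051 CPM in Tia1+/- and 1715 to 2593 CPM in WT libraries. The results below are given with these values beside them where they move together.

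Per length of exon, the most abundant members were an activator and a catalytic subunit. Cdk5r1, which encodes the main neuronal activator of CDK5, averaged 77.0 CPM per kb (SD 4.41, n = 12), and Ppp2ca, the catalytic subunit of PP2A, 64.5 (SD 5.28). Cdk5 itself stood at 44.5 CPM per kb. The GSK3 paralogs were almost level, with 28.1 for Gsk3b and 27.8 for Gsk3a, followed by Mark1 at 23.3 and Dyrk1a at 22.3. Cdk5r2, the second CDK5 activator, had 14.96, the regulatory subunit gene Ppp2r2a 12.4 and Mark2 10.8 CPM per kb. Among neighbours in this order, Ppp2ca and Cdk5 were the single pair whose ranges over the 12 libraries did not overlap. Cdk5r1 was above Ppp2ca, Cdk5 above Gsk3b and Dyrk1a above Cdk5r2 within each of the 12 libraries, although their ranges overlapped. Gsk3b exceeded Gsk3a in 7 libraries of 12, and Mark1 exceeded Dyrk1a in 7 of 12.

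**Figure D1:**
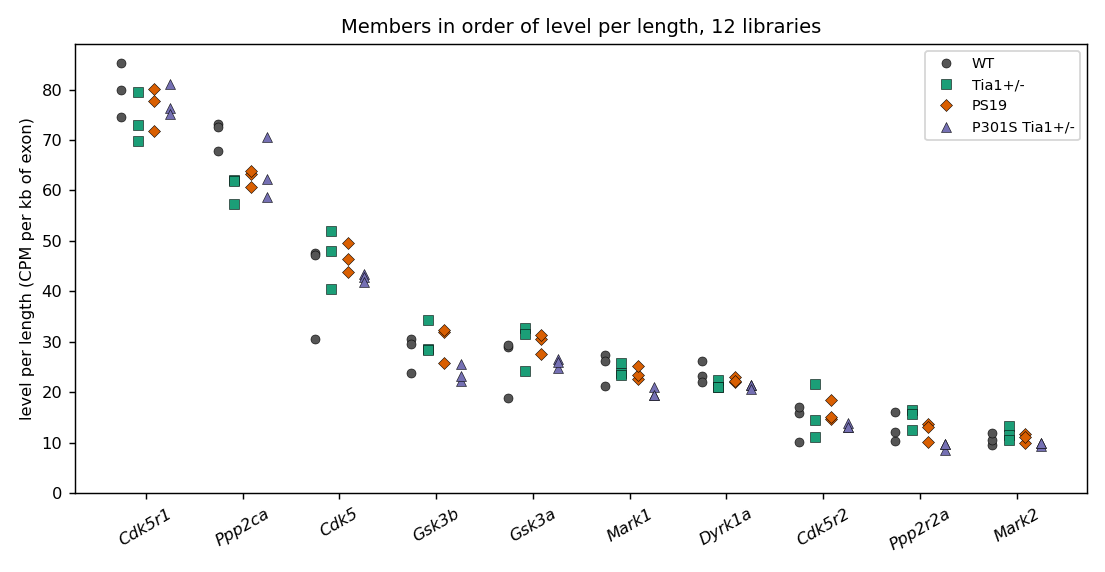
Level per length (CPM per kb of exon, vertical axis) of each member in the 12 libraries, with members ordered by their mean and 1 symbol and colour per genotype. Cdk5r1 and Ppp2ca sit above 57 CPM per kb in every library, and Mark2 lies between 9.41 and 13.4.

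How much a member varied differed widely. The coefficient of variation over all 12 libraries was 5.72% for Cdk5r1, lower than in all but 2.49% of tested genes, 6.58% for Dyrk1a and 8.19% for Ppp2ca. It was 22.0% for Ppp2r2a and 21.0% for Cdk5r2, the highest of the 10, and between 11.1% and 14.0% for the other 5. The extremes fell in few libraries. Tia1+/- replicate 1 held the highest value of 5 members, P301S Tia1+/- replicate 1 the lowest value of 4, and WT replicate 1 the lowest of 3 and the highest of another 3.

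Gsk3b, on the plus strand of chromosome 16 (chr16:38089001-38246084, GRCm38), encodes GSK3 beta, a constitutively active kinase that insulin and growth factor signalling switch off through AKT. Its level was 199, 254 and 248 CPM in WT, 287, 238 and 236 CPM in Tia1+/-, 216, 267 and 271 CPM in PS19, and 186, 214 and 194 CPM in P301S Tia1+/- libraries. Each P301S Tia1+/- value was below each PS19 and each Tia1+/- value, whereas WT overlapped all other groups. In edgeR's quasi-likelihood test, the log2 fold change of P301S Tia1+/- against PS19 was -0.34 (SE 0.127, unadjusted p = 0.0210, Benjamini-Hochberg adjusted p = 0.191), and against Tia1+/- it was -0.36 (SE 0.127, adjusted p = 0.245). Neither passed the adjusted threshold of 0.05. Lower values in bulk tissue may mean fewer cells of a type or less RNA per cell, which cannot be told apart.

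The 4 libraries with the lowest Gsk3b were the 3 P301S Tia1+/- libraries and WT replicate 1, which are also the 4 with over 700 CPM of olfactory bulb transcripts. With the mean log2 level of the bulb list as a covariate, the difference was -0.014 (SE 0.215, adjusted p = 0.981) against PS19 and -0.070 (SE 0.195, adjusted p = 0.871) against Tia1+/- in edgeR's test. Both standard errors were larger than the 0.127 without the covariate, so the fit cannot show whether the difference withstands it. Within this design the covariate is high in all 3 libraries of 1 group, so it and the genotype were nearly inseparable outside WT. The part of bulb tissue in the result was not otherwise tested.

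Gsk3a (chr7:25228258-25237851, minus strand) encodes the alpha paralog, which phosphorylates much the same sites. It had 42.8, 65.6 and 66.6 CPM in WT, 74.0, 71.3 and 54.9 CPM in Tia1+/-, 62.6, 69.1 and 70.8 CPM in PS19, and 56.3, 60.3 and 58.8 CPM in P301S Tia1+/- libraries. The P301S Tia1+/- libraries lay below all PS19 libraries and inside the range of WT and Tia1+/-, and no comparison reached an unadjusted p under 0.05 in edgeR's fit of all 12 libraries. The log2 fold change against PS19 was -0.21 there (adjusted p = 0.491), and -0.21 (unadjusted p = 0.0198, adjusted p = 0.0797) in a fit of only the 6 libraries compared. With the bulb covariate the sign turned, to 0.56 (unadjusted p = 0.00944, adjusted p = 0.0860) against PS19 and 0.48 (adjusted p = 0.0959) against Tia1+/-, in edgeR's test. There were 3.30 to 4.64 Gsk3b counts for each Gsk3a count, and the geometric mean of that ratio was 4.06 for WT, 3.82 for Tia1+/-, 3.71 for PS19 and 3.38 for P301S Tia1+/-. The highest ratio was that of WT replicate 1.

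**Figure D2:**
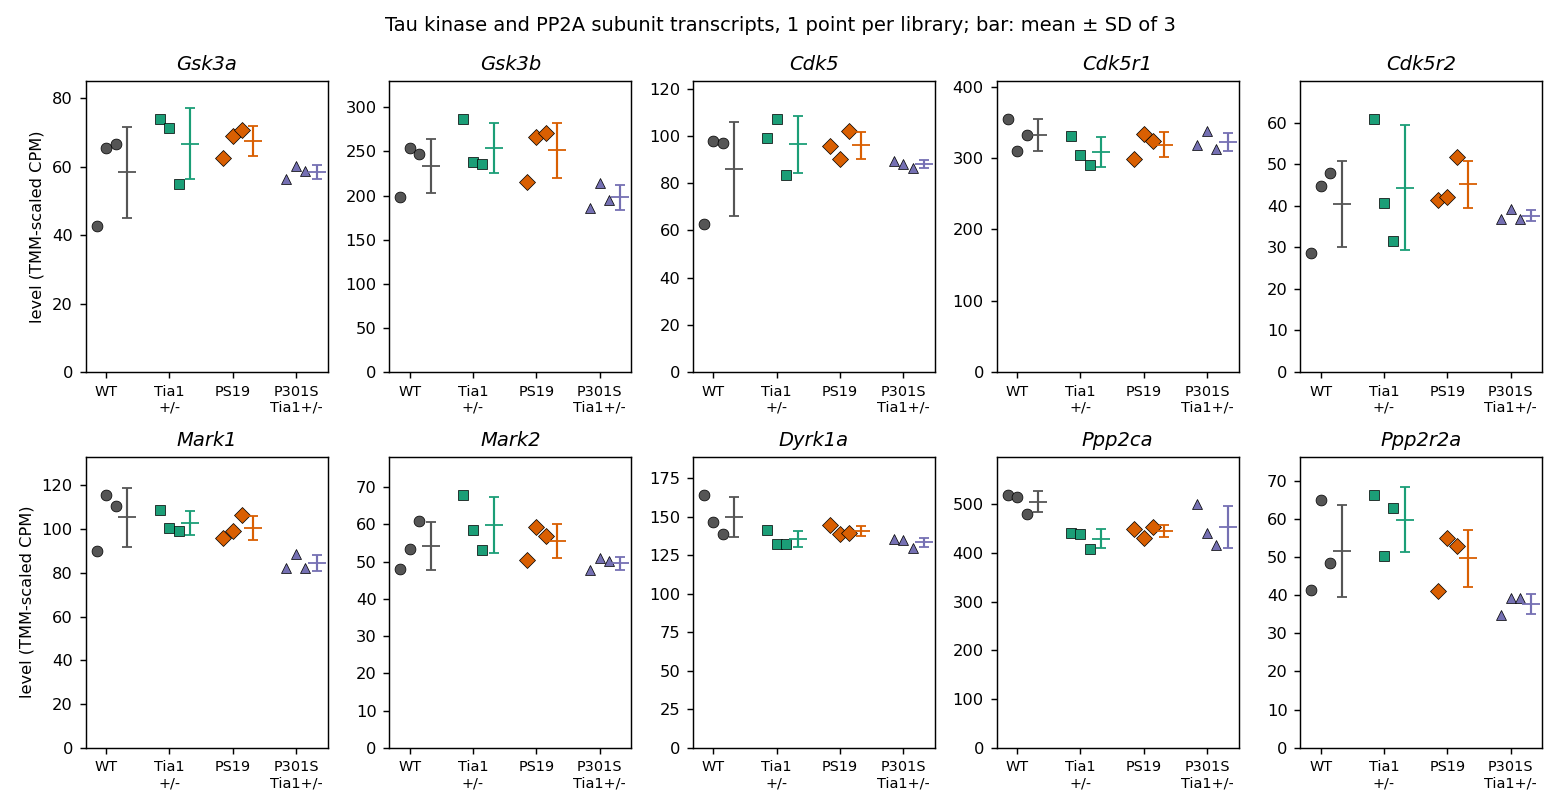
TMM-scaled CPM (vertical axis, from 0) of the 10 members in each library, grouped by genotype, with the mean and SD of 3 libraries beside the points. Gsk3b, Mark1 and Ppp2r2a sit lower in the 3 P301S Tia1+/- libraries than in every PS19 and Tia1+/- library, and Cdk5r1 is nearly flat.

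Of the CDK5 genes, Cdk5 and Cdk5r2 were lower in every P301S Tia1+/- than in every PS19 library, but none of the 3 genes had an unadjusted p under 0.05 in any comparison in edgeR's fit of all 12 libraries. Cdk5 (chr5:24418241-24423530, minus strand) encodes a kinase that is inactive until an activator binds it. Its level was 62.8, 98.0 and 97.1 CPM in WT, 99.0, 107 and 83.4 CPM in Tia1+/-, 95.8, 90.5 and 102 CPM in PS19, and 89.6, 88.3 and 86.3 CPM in P301S Tia1+/- libraries. WT replicate 1 was by far the lowest, and the P301S Tia1+/- libraries were tightly grouped just below the PS19 range. Cdk5r1 (chr11:80477023-80481184, plus strand) had 355, 310.4 and 332 CPM in WT, 331, 304 and 290.3 CPM in Tia1+/-, 299, 333 and 323 CPM in PS19, and 318, 337 and 313 CPM in P301S Tia1+/- libraries. All 4 groups overlapped, and the 95% intervals of its 4 pairwise log2 fold changes lay between -0.29 and 0.25, so changes beyond about that size are outside them.

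Cdk5r2 (chr1:74854934-74857732, plus strand) was the least expressed CDK5 gene and the most scattered, from 28.6 CPM in WT replicate 1 to 60.9 CPM in Tia1+/- replicate 1. Its P301S Tia1+/- libraries held 36.9, 39.1 and 36.8 CPM, below the 41.5, 42.2 and 51.7 CPM of PS19 (log2 fold change -0.26, edgeR unadjusted p = 0.282). With the bulb covariate the sign turned here too, to 0.78 against PS19 (unadjusted p = 0.0211, adjusted p = 0.129) and 0.70 against Tia1+/- (adjusted p = 0.140). There were 5.44 to 12.4 Cdk5r1 counts per Cdk5r2 count, with the highest ratio in WT replicate 1. Counts of Cdk5r1 per count of Cdk5 ran from 2.83 to 5.64, again highest in WT replicate 1. That library carried the fewest transcripts of Gsk3a, Cdk5 and Cdk5r2 and the most of Cdk5r1, Dyrk1a and Ppp2ca.

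With the bulb covariate, Cdk5 was the one member past the adjusted threshold, higher in P301S Tia1+/- than in PS19 by 0.63 (log2, SE 0.153, adjusted p = 0.0393, edgeR) and than in Tia1+/- by 0.53 (adjusted p = 0.0449), and by 0.84 in the interaction (adjusted p = 0.0485), which is the tau difference among mice with 1 Tia1 copy minus that among mice with both. Without the covariate the values were -0.13 and -0.13 for the pairwise differences, so the sign of Cdk5 turned with the setting. Inside a group, bulb transcripts differed most in WT, at 1166 CPM in replicate 1 against 188 and 64.8 CPM. Cdk5 was at 62.8 CPM in that library against 98.0 and 97.1 CPM. How far the covariate fit rests on WT replicate 1 was not tested, for Cdk5 or for the sign changes of Gsk3a and Cdk5r2. In that fit 5.43% and 6.84% of all genes passed in the pairwise comparisons and 7.12% in the interaction.

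Mark1 (chr1:184896789-184999570, minus strand) encodes a kinase of the microtubule-binding repeats and of neuronal polarity. Its level was 89.8, 116 and 110.3 CPM in WT, 109, 100.4 and 99.2 CPM in Tia1+/-, 95.9, 99.3 and 106 CPM in PS19, and 82.2, 88.7 and 82.2 CPM in P301S Tia1+/- libraries. The P301S Tia1+/- libraries were the 3 lowest of the 12, and WT replicate 1 came next. In edgeR's test P301S Tia1+/- differed from PS19 by a log2 fold change of -0.25 (SE 0.0972, unadjusted p = 0.0251, adjusted p = 0.203) and from Tia1+/- by -0.29 (SE 0.0972, unadjusted p = 0.0137, adjusted p = 0.238). The mean tau effect, P301S transgene against none over both Tia1 genotypes, was -0.18 (SE 0.0687, adjusted p = 0.531). An exact permutation test of the tau label within Tia1 genotypes on log2 CPM gave -0.17 and p = 0.045 (two-sided, 400 assignments, smallest possible p 0.005, 1 of 20 such tests). With the bulb covariate Mark1 reversed to 0.060 (SE 0.153, edgeR adjusted p = 0.849) against PS19 and came to -0.014 (SE 0.137, adjusted p = 0.966) against Tia1+/-. These standard errors were larger than the 0.0972 without the covariate, so that fit cannot show whether the difference withstands it.

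Mark2 (chr19:7275396-7341860, minus strand) encodes a second kinase of that family. It had 48.0, 53.4 and 60.8 CPM in WT, 68.0, 58.4 and 53.0 CPM in Tia1+/-, 50.4, 59.2 and 56.9 CPM in PS19, and 47.6, 50.9 and 50.1 CPM in P301S Tia1+/- libraries. The P301S Tia1+/- values lay under all Tia1+/- values but reached into the PS19 and WT ranges. The log2 fold change against Tia1+/- was -0.27 (SE 0.114, edgeR adjusted p = 0.290), and 0.060 (SE 0.162, adjusted p = 0.868) with the bulb covariate, where the standard error was larger. There were 1.60 to 2.17 Mark1 counts per Mark2 count.

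Dyrk1a (chr16:94570010-94695517, plus strand) encodes a kinase that can prime tau for GSK3 and whose human gene is carried in an extra copy in Down syndrome. It had 164, 147 and 139 CPM in WT, 142, 132 and 132 CPM in Tia1+/-, 144, 138 and 139 CPM in PS19, and 135, 135 and 129.7 CPM in P301S Tia1+/- libraries. The P301S Tia1+/- values were below the PS19 values without overlap, and Tia1+/- overlapped WT. Permuting the Tia1 label within tau genotypes gave -0.11 and an exact two-sided p of 0.01 (400 assignments, 1 of 20 such tests), while edgeR's mean Tia1 effect had an adjusted p of 0.347. Here the direction ran with the Tia1 label and with sex-linked expression alike.

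Ppp2ca (chr11:52098681-52127778, plus strand) is the gene of the catalytic subunit. It had 519.9, 516 and 481 CPM in WT, 441, 439.6 and 408 CPM in Tia1+/-, 449.8, 431 and 453 CPM in PS19, and 501, 442 and 417 CPM in P301S Tia1+/- libraries. All WT libraries were above all Tia1+/- and all PS19 libraries, and P301S Tia1+/- replicate 1 reached into the WT range. edgeR's log2 fold change was -0.19 (SE 0.0837, unadjusted p = 0.0486, adjusted p = 0.304) for PS19 against WT and -0.24 (SE 0.0838, unadjusted p = 0.0171, adjusted p = 0.164) for Tia1+/- against WT, so neither passed. These comparisons share the WT libraries. The interaction was 0.26 (SE 0.118, adjusted p = 0.214). No other member had all WT libraries above all Tia1+/- and all PS19 libraries. Among other genes of the pathway, Ppp2r1b, Ppp2r5a, Csnk1a1, Mark3 and Igbp1 were below WT without overlap in both groups. Pearson's r of log2 CPM between Ppp2ca and Dyrk1a was 0.70 over the 12 libraries.

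The RefSeq promoter window of Ppp2ca holds a full cAMP response element. The RefSeq start lies inside the gene as GENCODE gives it, so the site is upstream of the RefSeq start and past the GENCODE start. The site (chr11:52098792-52098815, plus strand, RefSeq window on GRCm38.p6, capitals marking the letters TGACGTCA) reads:
Ppp2ca site: ctggcgTGACGTCAccacgccggg
The 250 bases before the start were searched on both strands in the 7 members that matched the RefSeq promoter table (11 windows). TGACGTCA was in 1 of the 11 member windows and in 1.55% of all 32851 windows. The pair Gsk3b and Mark1, which varied together over the libraries, is shown for comparison, with capitals for the motifs found. The motifs searched beside the response element were the TATA box, written TATAAA, the CCAAT box, the GC box, written GGGCGG, and the E-box, written CACGTG. The windows are chr16:38088751-38089000 (plus strand) for Gsk3b and chr1:184999955-185000204 (minus strand) for Mark1, which has 2 windows in the table:
Gsk3b window: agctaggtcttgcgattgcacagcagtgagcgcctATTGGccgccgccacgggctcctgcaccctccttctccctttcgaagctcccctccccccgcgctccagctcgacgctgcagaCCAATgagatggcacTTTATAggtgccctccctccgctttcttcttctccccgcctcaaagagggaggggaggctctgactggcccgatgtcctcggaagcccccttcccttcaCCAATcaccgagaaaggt
Mark1 window: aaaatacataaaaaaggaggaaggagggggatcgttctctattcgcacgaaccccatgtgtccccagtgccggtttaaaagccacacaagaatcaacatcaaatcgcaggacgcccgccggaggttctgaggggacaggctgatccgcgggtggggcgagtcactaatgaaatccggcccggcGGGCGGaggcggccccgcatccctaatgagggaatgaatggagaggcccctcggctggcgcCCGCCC
The Gsk3b window holds the TATA box, as do 12.4% of all windows, and the CCAAT box, as do 33.8%, while the Mark1 window holds the GC box, as do 32.7%. The E-box was in 0 of the 11 member windows and in 6.02% of all, and the Gsk3b and Mark1 windows had no motif in common. A match of letters is a description and says nothing about binding.

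Ppp2r2a (chr14:67014056-67072444, minus strand) encodes a regulatory B subunit that directs PP2A to tau among other substrates, and gave the largest differences of the 10. Its level was 41.4, 65.0 and 48.4 CPM in WT, 66.3, 50.2 and 62.8 CPM in Tia1+/-, 41.1, 55.0 and 52.9 CPM in PS19, and 34.8, 39.2 and 39.2 CPM in P301S Tia1+/- libraries. The P301S Tia1+/- libraries were the 3 lowest of the 12. Against Tia1+/- the log2 fold change was -0.66 (SE 0.172, 95% interval -1.04 to -0.28, unadjusted p = 0.00271, edgeR adjusted p = 0.182), and against PS19 it was -0.40 (SE 0.172, adjusted p = 0.242). The mean tau effect was -0.36 (SE 0.122, adjusted p = 0.476), and the exact permutation of the tau label gave p = 0.07 (two-sided). The interaction was -0.61 (SE 0.243, adjusted p = 0.175).

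In edgeR's fit with the bulb covariate, Ppp2r2a was at -0.56 against Tia1+/- (SE 0.298, adjusted p = 0.284). Against PS19 it was at -0.28 in that fit (SE 0.335, adjusted p = 0.658). Both standard errors were larger than the 0.172 without the covariate, so the fit cannot show whether the difference withstands it. Whether Ppp2r2a differs from Gsk3b and Mark1 in this was not tested. Relative to the catalytic subunit, the counts of Ppp2r2a per count of Ppp2ca had geometric means of 0.1003 for WT, 0.138 for Tia1+/-, 0.111 for PS19 and 0.0833 for P301S Tia1+/-. The Tia1+/- ratios of 0.150, 0.114 and 0.154 were all above the P301S Tia1+/- ratios of 0.0694, 0.0886 and 0.0940. Ratios of PS19 (0.0914 to 0.128) and WT (0.0796 to 0.126) overlapped those of P301S Tia1+/-. This ratio is free of library scaling. Of the 50-base windows of the Ppp2r2a transcript, 6.31% also match the pseudogene Gm19221, so some reads could have been split between them.

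**Figure D3:**
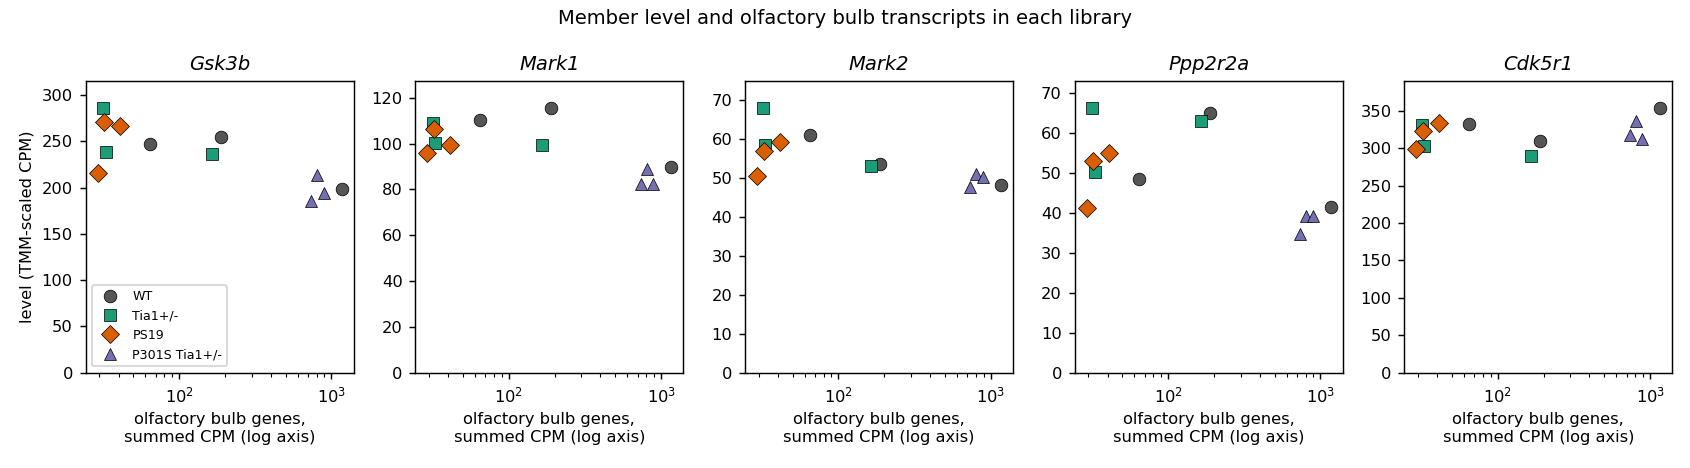
Level of 5 members (TMM-scaled CPM, vertical axes from 0) against the summed level of 12 olfactory bulb genes (horizontal log axis) in the same library, 1 point per library and 1 symbol per genotype. The 3 P301S Tia1+/- libraries and WT replicate 1 lie to the right, above 700 CPM, and are the 4 lowest for Gsk3b, whereas Cdk5r1 is highest in WT replicate 1.

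Counted together, none of the 10 members passed an adjusted p of 0.05 in any of the 8 comparisons. This is 0 of 10 beside 0% of all genes for PS19 against WT, 0.24% for P301S Tia1+/- against PS19, 0.712% for Tia1+/- against WT and 0% for P301S Tia1+/- against Tia1+/-. It is likewise 0 of 10 beside 0% for the mean tau effect, 0.44% for the mean Tia1 effect, 0.00648% for the interaction and 0.395% for any difference among the 4 groups. At an unadjusted p under 0.05 in edgeR's test, 1, 3, 1 and 4 members remained in the 4 pairwise comparisons in that order, against 16.3%, 19.3%, 19.1% and 15.6% of all genes. For the mean tau effect 2 members did (8.39% of genes), for the mean Tia1 effect 0 (15.6%), for the interaction 3 (22.9%) and for any difference 2 (22.2%), namely Mark1 and Ppp2r2a. DESeq2, run as the other tool, called 1 member in 2 of the comparisons, Ppp2r2a in P301S Tia1+/- against Tia1+/- (adjusted p = 0.0266, beside 2.53% of all genes) and in any difference (beside 11.5%), and 0 in the others.

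Counts of groups that did not overlap showed a lean in the libraries titled P301S Tia1+/-, whose genotype field names the other group. Against PS19, 7 of 10 members (Gsk3a, Gsk3b, Cdk5, Cdk5r2, Mark1, Dyrk1a and Ppp2r2a) were lower in each of the 3 libraries and 0 were higher, while 18.2% of all genes were lower without overlap and 20.2% higher. Against Tia1+/-, 4 of 10 were lower and 0 higher, beside 11.1% and 14.9% of all genes. For PS19 against WT and Tia1+/- against WT, 1 member each was lower, Ppp2ca, beside 11% and 10.4% of all genes, and 0 were higher, beside 9.75% and 9.6%. The comparisons with P301S Tia1+/- share its libraries, and those with WT share the WT libraries. The median log2 fold change of the members was -0.18 against PS19 and -0.21 against Tia1+/-, beside 0.01 and 0.01 over all genes, with 8 of 10 below 0 in each, as were 48.5% and 48.9% of all genes. All 3 P301S Tia1+/- libraries carried 734 CPM or more of bulb transcripts. All PS19 libraries carried 41.1 CPM or less and all Tia1+/- libraries 164 CPM or less. Genotype and bulb level therefore cannot be told apart in the comparison with PS19 or in that with Tia1+/-. Xist was at 261 to 317 CPM in P301S Tia1+/-, 217 to 367 CPM in Tia1+/- and at most 0.783 CPM in PS19 libraries. Against PS19, sex-linked expression therefore cannot be told apart from genotype either. The median log2 fold change of the members was -0.01 for PS19 against WT and 0.13 for Tia1+/- against WT.

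**Figure D4:**
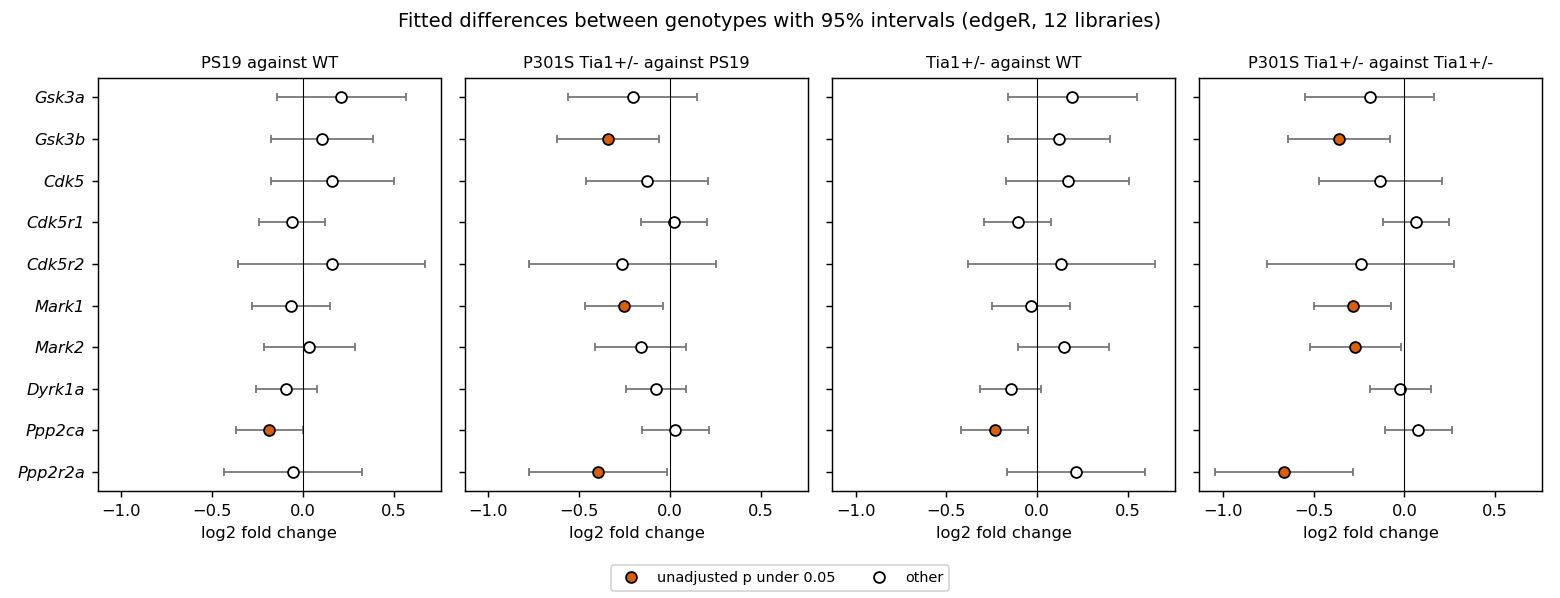
Fitted log2 fold changes of the 10 members (horizontal axis) in the 4 pairwise comparisons, with 95% intervals from a fit of all 12 libraries and filled points where the unadjusted p is under 0.05. The 4 filled points of P301S Tia1+/- against Tia1+/- lie between -0.66 and -0.27, and most intervals in the other panels cross 0.

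The number of members passing changed when WT replicate 1 and Tia1+/- replicate 3, the libraries high in bulb and striatal genes outside the P301S Tia1+/- group, were left out together. Without WT replicate 1 alone, 1 member passed against PS19 and 2 against Tia1+/-, beside 10.3% and 6.11% of all genes, and without Tia1+/- replicate 3 alone 0 passed in both. With both left out, 3 members passed as lower in P301S Tia1+/- than in PS19, namely Gsk3a (-0.23, adjusted p = 0.0304), Gsk3b (-0.37, adjusted p = 0.0189) and Mark1 (-0.28, adjusted p = 0.0116), when 22.9% of all genes passed. Against Tia1+/-, 7 of 10 passed as lower, when 23.4% of all genes passed, and Cdk5r1, Dyrk1a and Ppp2ca did not. There Ppp2r2a was at -0.64 (adjusted p = 0.0109) and Gsk3b at -0.42 (adjusted p = 0.0157), edgeR's test being used throughout. Neither library left out belongs to P301S Tia1+/- or PS19. In the comparison of these groups the standard error of Gsk3a went from 0.161 to 0.0688. Its log2 fold change there moved only from -0.21 to -0.23. Against Tia1+/-, the standard error went from 0.127 to 0.110 for Gsk3b. For Gsk3a it went from 0.161 to 0.0764 while the log2 fold change moved from -0.19 to -0.33. Comparisons of PS19 with WT and Tia1+/- with WT called 0 members in either fit. The bulb transcripts of the P301S Tia1+/- libraries stay in the comparison when these libraries are removed.

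**Figure D5:**
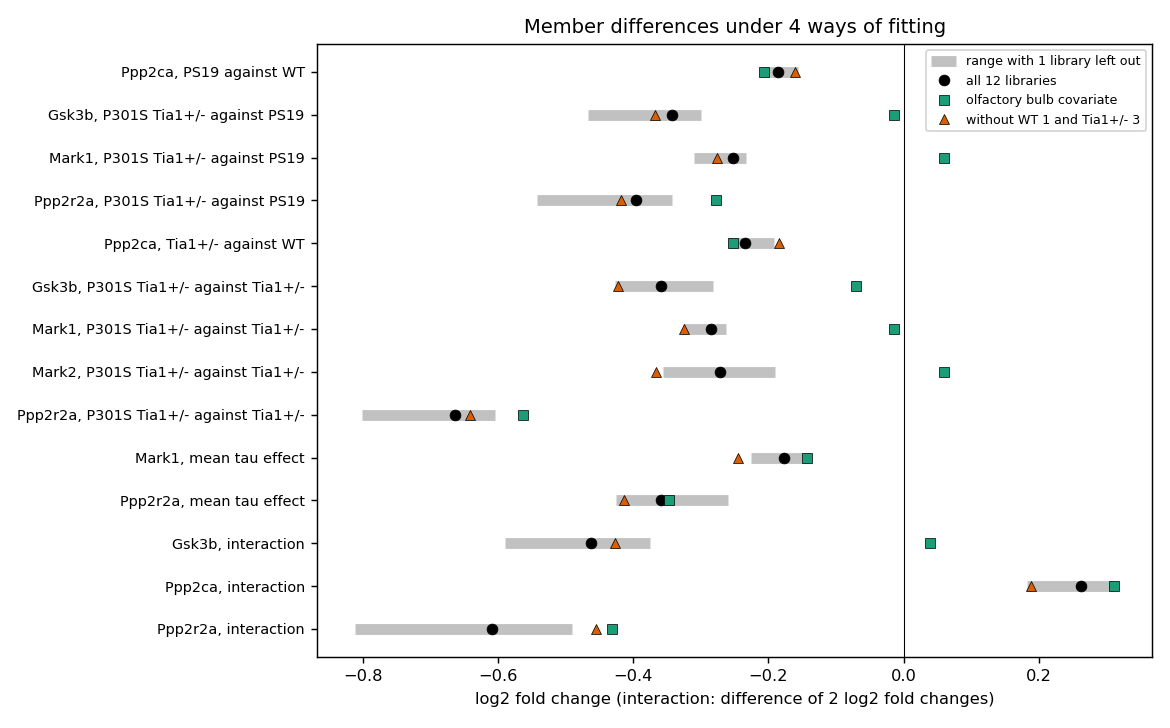
Log2 fold changes of the member differences with an unadjusted p under 0.05 in the fit of all libraries (horizontal axis), from all 12 libraries (circles), with the olfactory bulb covariate (squares) and without WT replicate 1 and Tia1+/- replicate 3 (triangles), with the range over single libraries left out (grey bars). With the bulb covariate Gsk3b, Mark1 and Mark2 lie near 0, between -0.070 and 0.060, in the pairwise comparisons. Ppp2r2a lies below 0 there. For Gsk3b, Mark1, Mark2 and Ppp2r2a alike, the standard errors were larger than without the covariate.

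Members also varied together within genotypes. Over the 12 libraries, Pearson's r of log2 CPM was 0.93 for Gsk3a with Cdk5, 0.88 for Gsk3b with Mark2, 0.88 for Gsk3b with Mark1 and 0.87 for Gsk3b with Ppp2r2a, and 0.93, 0.85, 0.88 and 0.81 once group means were removed. Cdk5 and Dyrk1a ran opposite, at -0.55. All points of such a correlation share a library and its scaling, so these are descriptions. The gene most like Gsk3b over the 12 libraries was Mkl2 (r = 0.97), the one most like Mark1 was Mbnl2 (0.98), and the one most like Ppp2ca was Naa20 (0.99). Gsk3a ran most closely with Map6 (0.99), which encodes a microtubule-stabilising protein, while the closest gene to Cdk5r1, Socs2, reached 0.86.

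Around the members, 6 lists of pathway genes held 0 genes past the adjusted threshold in all 7 comparisons with a direction: 35 other tau kinases, 15 regulators of GSK3, 10 regulators of CDK5, 17 other PP2A subunits, 11 PP2A regulators and 7 other tau phosphatases. In P301S Tia1+/- against PS19 the numbers with an unadjusted p under 0.05, higher and lower, were 3 and 4 kinases, 6 and 1 GSK3 regulators, 1 and 0 CDK5 regulators, 1 and 0 PP2A subunits, 0 and 1 PP2A regulators, and 1 and 1 phosphatases, when 19.3% of all genes had such a p. In Tia1+/- against WT they were 3 and 3, 1 and 2, 1 and 3, 2 and 3, 0 and 2, and 0 and 1 in the same order, when 19.1% of all genes did. The smallest adjusted p of all was for a PP2A gene in Tia1+/- against WT. Ppp2r1b, a scaffold subunit, was at 32.9 CPM in WT and 20.6 CPM in Tia1+/- on average (log2 fold change -0.68, SE 0.138, edgeR adjusted p = 0.0553), and Ppp2r5a, a regulatory B subunit of another family, at 129 and 83.4 CPM (-0.63, adjusted p = 0.0771). The tau kinase gene Mark3, of the same family as Mark1, differed by -0.42 (adjusted p = 0.0657). Cast, the inhibitor of the calpains that cleave the CDK5 activator, was at 18.6 ± 1.74 CPM in WT and 10.4 ± 2.30 CPM in PS19 libraries (-0.83, adjusted p = 0.133).

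In P301S Tia1+/- against PS19, 26 of 35 other tau kinases had a log2 fold change below 0, as did 48.5% of all genes, with a median of -0.21. Camk2b was at 766 ± 29.3 CPM in P301S Tia1+/- and 537 ± 29.0 CPM in PS19 libraries (0.51, adjusted p = 0.110), and Fyn, a tyrosine kinase that binds tau, at 145 and 94.7 CPM (0.61, adjusted p = 0.142). Apc, a scaffold of the complex in which GSK3 marks beta-catenin, was at 881 and 501 CPM (0.81, adjusted p = 0.0970), and the phosphatase gene Ppp1cc at 421 and 221 CPM (0.93, adjusted p = 0.109). None passed, and the same libraries differed in bulb transcripts as given above. Without WT replicate 1 and Tia1+/- replicate 3, 15 of the 35 kinases passed in this comparison and 17 against Tia1+/-, when 22.9% and 23.4% of all genes did.

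Mapt, the substrate's gene, whose levels against the titles are given at the start, had an interaction of -0.70 (SE 0.239, edgeR adjusted p = 0.129).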

How the data were processed

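RNA from cortex of 12 mice was sequenced in pairs after stranded total RNA library preparation. The authors aligned reads to mm10, and the submitters' processing notes name TopHat2 2.0.6 and featureCounts. The deposited table holds raw counts per gene symbol. The gene annotation, strand setting and treatment of multiply aligned reads are not given in the sources used here, so antisense neighbours of Gsk3a, Mark1, Mark2 and Ppp2ca could have added reads. Strand, exon lengths and coordinates came from GENCODE on GRCm38 and promoters from RefSeq.

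Members, pathway lists and tests were chosen with earlier results of these data known. CPM were computed with TMM factors in edgeR 4.0.16 (R 4.3.3). Genes were kept by filterByExpr, and 1 quasi-likelihood fit over the 4 groups gave all contrasts, with Benjamini-Hochberg adjustment over the 15440 genes. The p-values cover the spread between mice. Levels between genes are per kb of exon. DESeq2 1.42.0, other filters, covariates, a replicate block and left-out libraries were alternatives. On simulated counts for PS19 against WT (15285 genes) the test recovered 4% of 1.25-fold, 22% of 1.5-fold and 92% of 2-fold changes, with 6 false calls. Changes were put only into genes with higher counts. Counts were drawn independently at edgeR's trended dispersion, without the bulb and striatal differences between libraries. The recovery therefore need not hold for the real libraries. All 10 members were named. A member's fold change was given singly where its unadjusted p was under 0.05, otherwise mostly as a range or count, with Gsk3a, Cdk5 and Cdk5r2 added after their values were seen. Pathway genes were those with the smallest p per list. The bulb and striatum lists entered as the mean log2 CPM (pseudocount 0.5). Same-numbered libraries correlated above 0.1 in 7 of 18 pairs, and in all 3 pairs only for Tia1+/- with P301S Tia1+/- (0.123 to 0.240). Part of the gene likeness result is not reported here.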

Additional observations from a re-analysis of the deposited data

How the results depend on the processing

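In P301S Tia1+/- against PS19, adding the bulb covariate reversed Gsk3a (0.56), Cdk5 (0.63), Cdk5r2 (0.78) and Mark1 (0.060). Against Tia1+/- it reversed Gsk3a (0.48), Cdk5 (0.53), Cdk5r2 (0.70) and Mark2 (0.060), and in the interaction Gsk3b (0.039) and Cdk5 (0.84). Cdk5r2 against Tia1+/- also reversed without Tia1+/- replicate 1, and ranged from -0.44 to 0.038 with 1 library left out. Differences with an unadjusted p under 0.05 in the fit of all libraries kept their sign in every other fit run. The number of members passing was 0 in every fit for PS19 against WT and Tia1+/- against WT. For P301S Tia1+/- against PS19 it was 3 in a fit of only the libraries compared (Gsk3b, Mark1, Ppp2r2a, beside 20.1% of all genes), 1 with the bulb covariate, 0 to 1 with 1 library left out and 3 without WT replicate 1 and Tia1+/- replicate 3. For P301S Tia1+/- against Tia1+/- it was 1 with DESeq2, 1 in a fit of only the libraries compared (Ppp2r2a, beside 2.22%), 1 with the bulb covariate, 0 to 2 with 1 library left out (2 without WT replicate 1, Mark1 and Ppp2r2a) and 7 without both. Without both it was 2 for the mean tau effect (beside 14% of all genes), 1 for the mean Tia1 effect (11%), 1 for the interaction (13.5%) and 4 for any difference (29.3%), and it was 1 for the interaction with the bulb covariate. For any difference it was 1 with DESeq2's likelihood-ratio test and 0 to 1 with 1 library left out (Mark1 without WT replicate 1). Exact permutation p-values under 0.05 numbered 0 to 2 for the tau label and 0 to 2 for the Tia1 label with 1 library left out, against 1 and 1. The cause was not tested. Genes passing over the whole table ranged over the fits from 0 to 543 (0 in the fit of all libraries) for PS19 against WT, 6 to 3569 (37) for P301S Tia1+/- against PS19, 6 to 1232 (110) for Tia1+/- against WT, 0 to 3646 (0) for P301S Tia1+/- against Tia1+/-, 0 to 2180 (0) for the mean tau effect, 12 to 1710 (68) for the mean Tia1 effect, 0 to 2106 (1) for the interaction and 6 to 4566 (61) for any difference. The replicate block over all 12 libraries called 0 members in every comparison, with Ppp2r2a at -0.68 (adjusted p = 0.267, edgeR) in P301S Tia1+/- against Tia1+/-. A block in those 6 libraries alone, added after seeing the data, where the numbers pair, gave -0.66 (adjusted p = 0.0814), 0 members and 145 genes. Levels per length and ratios of members moved by less than their SD. In simulated counts for PS19 against WT, 22% of 1.5-fold changes were recovered, so changes of that size were mostly not detected there with 3 libraries per group. The simulation held no bulb or striatal differences between libraries, so recovery in the real comparison was not measured. The other comparisons were not simulated.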
